A study of Mus musculus with 5 samples.

Results

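The 10 genes described here were first known from pluripotent cells and then from germ cells, and they were followed in newborn mouse ovaries that lack Lhx8. They were Pou5f1, Sox2, Nanog, Lin28a, Sall4, Dppa3, Dppa4, Dppa5a, Tcl1 and Prdm1, taken by gene symbol with no regard to brightness. The 10 genes had 12 probe sets with a single gene symbol, out of 45037 fitted probe sets, which named 18193 genes in all. Lin28a and Sall4 had 2 probe sets each and the other genes 1 each. The arrays were 3 from Lhx8 null ovaries (replicates 1, 2 and 3) and 2 from wild type ovaries (replicates 2 and 3). Every ovary was dissected at postnatal day 0.5 from females on a hybrid C57/BL6 and 129SVEV background. Each array held RNA of 1 pool of 50 ovaries from at least 25 animals, so a replicate here is a pool. The sources used here do not say how the null allele was made, and replicate 1 of the wild type is not analysed here.

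Pluripotency factors hold embryonic cells in an undifferentiated state, and part of this set stays on in the germ line, the lineage set aside for eggs and sperm. PRDM1 and its partners specify primordial germ cells in the embryo, POU5F1 and NANOG are kept while those cells divide, and NANOG and SOX2 are known to be switched off in female germ cells around the start of meiosis. DPPA3, SALL4 and POU5F1 are known again from oocytes. The product of Lhx8 is a LIM-type homeobox regulator found in oocytes, and the question put was which transcripts change without it.

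Sequences just before the gene start are shown for 3 members that moved in opposite directions, the deepest fall (Tcl1), the gene for OCT4 (Pou5f1) and the only rise (Prdm1). Each is the 250 bases before a RefSeq gene start in build GRCm38.p6, written 5′ to 3′ along the gene, with E-boxes (CANNTG on either strand, the core bound by basic helix-loop-helix factors such as FIGLA and SOHLH1) in capitals. The Tcl1 window is chr12:105222738-105222987 on the minus strand, the Pou5f1 window chr17:35505782-35506031 on the plus strand and the Prdm1 window chr10:44458749-44458998 on the minus strand.
Tcl1: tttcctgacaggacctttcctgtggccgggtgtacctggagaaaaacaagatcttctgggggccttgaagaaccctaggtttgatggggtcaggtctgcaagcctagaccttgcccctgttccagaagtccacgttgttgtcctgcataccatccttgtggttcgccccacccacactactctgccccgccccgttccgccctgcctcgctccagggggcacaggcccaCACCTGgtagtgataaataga
Pou5f1: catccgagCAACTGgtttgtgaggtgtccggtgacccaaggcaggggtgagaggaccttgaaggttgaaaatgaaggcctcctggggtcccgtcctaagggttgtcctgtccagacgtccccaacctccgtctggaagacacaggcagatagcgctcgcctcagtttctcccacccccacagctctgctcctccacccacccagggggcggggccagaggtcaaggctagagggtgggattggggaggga
Prdm1: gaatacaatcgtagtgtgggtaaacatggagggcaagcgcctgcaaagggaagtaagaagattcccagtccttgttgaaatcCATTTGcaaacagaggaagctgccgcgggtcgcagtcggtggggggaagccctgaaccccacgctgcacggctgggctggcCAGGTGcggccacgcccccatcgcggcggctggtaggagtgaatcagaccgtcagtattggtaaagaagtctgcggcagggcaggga
The E-box of Tcl1 began 21 bases before the gene start, that of the printed Pou5f1 window 242 bases before, and those of Prdm1 168 and 87 bases before. An E-box was present in 66.2% of the 32851 such windows in the table, so its presence in these windows is common. Of the 10 genes, 6 matched the table, with 8 windows (Pou5f1 and Nanog had 2 windows each, and Sox2, Lin28a, Prdm1 and Tcl1 had 1 each). The other Pou5f1 window, chr17:35508557-35508806, is not printed and held E-boxes 143 and 51 bases before its start. None of the 8 held TAATTA, a core of LIM homeodomain sites, TAATTG, a core bound by NOBOX, or ATGCAAAT, the octamer bound by POU factors, each searched on both strands. Those motifs stood in 4.8%, 7.2% and 1.6% of all windows. TAATTA and TAATTG differ only in their last letter, and no match says only that these letters are not in these windows.

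Of the 10 genes, 7 fell in Lhx8 null ovaries, 1 rose and 2 did not pass the test. Pou5f1, Lin28a, Sall4, Dppa3, Dppa4, Dppa5a and Tcl1 fell, at 9 of the 12 probe sets, and Prdm1 rose. Sox2 and Nanog did not pass. The median difference over the 12 probe sets was -2.07 on the log2 scale, beside -0.0003 over all probe sets fitted. Differences are null minus wild type on the quantile-normalised log2(signal + 16) scale, tested with limma, and a gene is called at an adjusted p below 0.05. Of all probe sets 21% were called, 10.3% lower (4642) and 10.7% higher (4816). By the brightest probe set of each gene, 27.5% of genes were called. These counts over all probe sets depended on each wild type array. They were 2158 lower and 2488 higher without wild type replicate 2, and 1801 and 2134 without wild type replicate 3. In the same leave-one-out fits 7 and 6 of the 12 probe sets were called lower, and Prdm1 stayed higher in each.

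The null label was checked first on Lhx8 itself. It had signals of 332.6, 159 and 347.4 on null arrays, against 6450.1 and 5223.1 on wild type arrays. Lhx8 fell by 4.45 in log2 terms (SE 0.30, limma adjusted p = 9.53e-05). Markers of the labelled tissue were present in both groups. Foxl2, a granulosa transcription factor, had signals of 2304.9, 1804.2 and 1714.2 on null arrays, against 5688.8 and 4462.1 on wild type arrays. Ddx4 and Dazl were lower in null ovaries but above the dim cutoff on every array, whereas the germ cell marker Tdrd1, with signals of 27.0, 22.3 and 104.0 on null arrays, was below it on 2 of the 3. Ddx4, a germ cell RNA helicase, averaged 486 ± 120 (SD, n = 3) in null and 3214 ± 234 (SD, n = 2) in wild type ovaries, and fell by 2.70 in log2 units (SE 0.20, adjusted p = 1.27e-04). Dazl, a germ cell RNA-binding protein, fell by 1.81 (SE 0.20, adjusted p = 6.75e-04) at its brightest probe set and by 2.46 (SE 0.20) at the other. Of the 15 germ cell markers listed, 13 fell and none rose (limma), with a median of -2.65 beside -0.02 over all genes. At an adjusted p below 0.05, 13.5% of genes were called lower by their brightest probe set. The summed signal of the list was 8832 to 14068 on null arrays and 64630 to 69850 on wild type arrays. In pooled ovaries fewer germ cells and less RNA per germ cell cannot be told apart, and this holds for every fall of a germ cell transcript below. Summed signals of stroma and smooth muscle markers were 87160 to 104767 on null and 34290 to 41797 on wild type arrays. Those of granulosa markers were lower on null arrays, at 18606 to 21456 against 29964 to 33348. The part of such changes in tissue make-up in the falls was not tested.

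The arrays also differed by group in ways outside the 10 genes. The bacterial hybridisation control BioC had a null to wild type ratio of 2.12, and the phage control Cre one of 1.90. The Actb 3′ to 5′ ratio, a measure of RNA integrity, was 1.48 to 1.69 on null and 1.39 to 1.43 on wild type arrays. The labels name no hybridisation batch, so a batch that follows the genotype cannot be told apart from it. The part of these differences in the results was not tested.

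**Figure D1:**
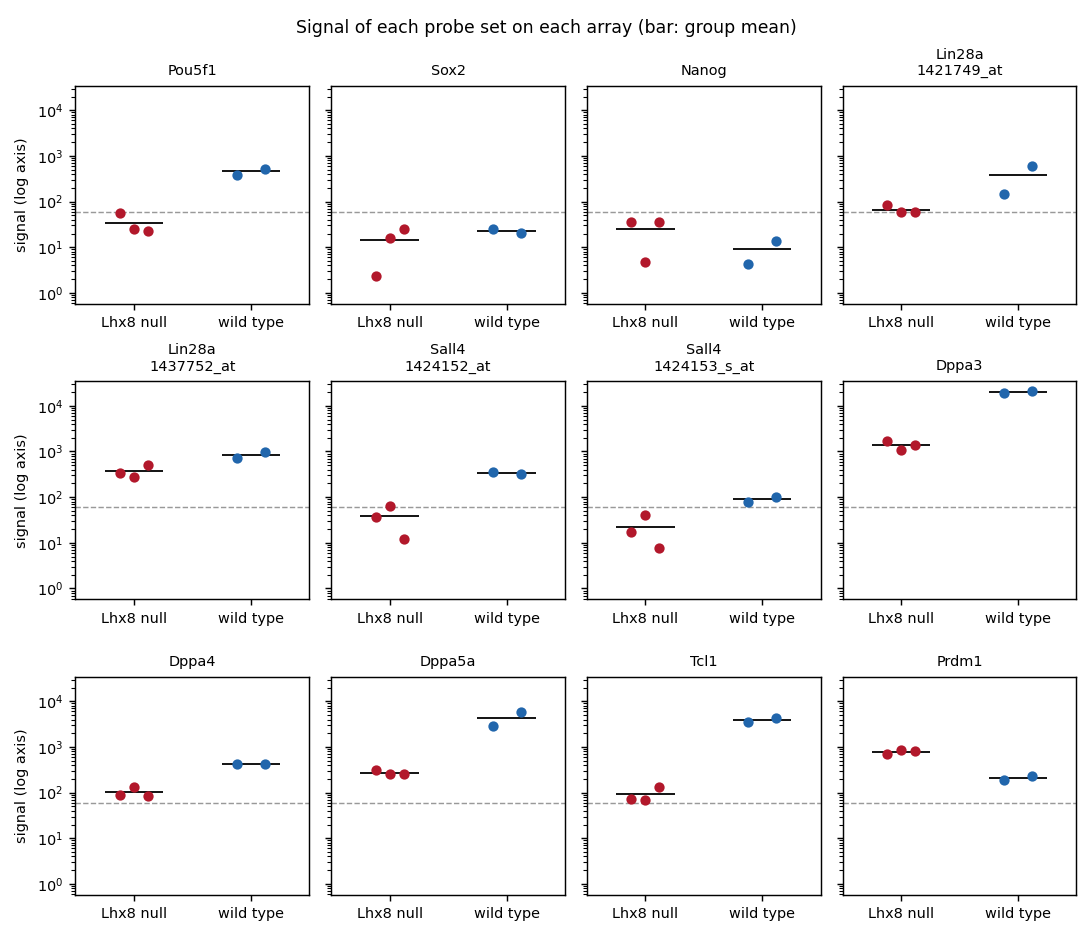
Deposited signal (log axis) of each of the 12 probe sets on each array, with Lhx8 null arrays on the left, wild type arrays on the right, the group mean as a bar and the dim cutoff of 59.8 as a dashed line. Tcl1, Dppa3 and Dppa5a sit far lower on the null arrays, Prdm1 sits higher, and Sox2 and Nanog lie under the cutoff on all 5 arrays.

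Among the transcription factors of the pluripotency core, Pou5f1 fell and its partners were too dim to follow. Pou5f1, which encodes the POU factor OCT4, had signals of 55.2, 24.9 and 22.8 on null arrays, against 387.3 and 529.2 in wild type. The null arrays were all below the dim cutoff of 59.8, which is the signal at the lowest 40% of probe sets by mean level, and the wild type arrays were both well above it. Mean signals were 34.3 ± 18.1 (SD, n = 3) in null and 458 ± 100 (SD, n = 2) in wild type ovaries. Pou5f1 fell by 3.42 (SE 0.37, adjusted p = 6.41e-04). Its size depends on the constant added before the log, at -3.99 with 1 and -2.49 with 64 in place of 16, and the call held with both. Sequence copies of this gene exist in the genome, and whether the probe set reads them was not tested.

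Sox2 encodes the HMG-box partner of OCT4, and Nanog a homeodomain factor of the same network. Sox2 had signals of 2.4, 16.2 and 25.5 on null arrays, against 24.5 and 20.7 on wild type arrays. Nanog had signals of 36.2, 4.7 and 35.3 on null arrays, against 4.2 and 13.9 on wild type arrays. All of these values lie under the dim cutoff, and by mean level Sox2 stood at percentile 16.4 and Nanog at percentile 15.1 of all probe sets. The deposited signals of both groups overlapped for each gene. Sox2 had a difference of -0.61 (SE 0.41, adjusted p = 0.361) and Nanog of 0.48 (SE 0.48, adjusted p = 0.545). Neither gene was above the dim range in newborn ovary of either genotype. The description of the 10 genes as kept in germ cells is therefore not borne out by these arrays for Sox2 and Nanog. It is not contradicted either, because 1 dim probe set per gene in whole ovary cannot show that a transcript was absent.

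Sall4, a zinc finger transcription factor of stem cells and germ cells, fell at both of its probe sets. The brighter had signals of 37, 63.7 and 12.4 on null arrays, against 350.4 and 316 on wild type arrays. The groups stood far apart, and among the null arrays replicate 2 was the highest and replicate 3 the lowest. Null replicates 1 and 3 were below the dim cutoff. The size depends on the added constant, at -3.57 with 1 and -2.08 with 64. This probe set fell by 2.96 (SE 0.46, adjusted p = 0.00323), and its adjusted p was at most 0.0499 over 13 alternatives. The dimmer had signals of 17.1, 40.7 and 7.6 on null arrays, against 79.4 and 101.1 on wild type arrays. It kept the same order of null arrays and did not overlap the wild type arrays either. This probe set was below the dim cutoff on every null array, and its difference was -2.58 with the constant 1 and -0.99 with 64. It fell by 1.79 (SE 0.46, adjusted p = 0.0267), and the call was lost without null replicate 3 (adjusted p = 0.0773), wild type replicate 2 (adjusted p = 0.109) or wild type replicate 3 (adjusted p = 0.162).

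Lin28a had the smallest called fall, at its brighter probe set, and its calls were among the least stable. It encodes an RNA-binding protein that blocks the maturation of let-7 microRNAs. The brighter Lin28a probe set had signals of 342.5, 270.9 and 516.8 on null arrays, against 702.7 and 988 on wild type arrays. It was above the dim cutoff on every array, and the highest null array stayed below the lowest wild type array. It fell by 1.18 (SE 0.28, adjusted p = 0.0205), and it did not pass without null replicate 2 (adjusted p = 0.0605), wild type replicate 2 (adjusted p = 0.066) or wild type replicate 3 (adjusted p = 0.191). The dimmer Lin28a probe set had signals of 83.2, 57.8 and 59.1 on null arrays, against 146.8 and 611 on wild type arrays. Null replicates 2 and 3 were just below the dim cutoff. The wild type arrays of this probe set differed from each other more than wild type replicate 2 differed from the null arrays. It fell by 2.13 (SE 0.51, adjusted p = 0.0197), and the difference stood at -3.01 without wild type replicate 2 and at -1.21 (adjusted p = 0.159) without wild type replicate 3. The call was also lost without null replicate 2 (adjusted p = 0.0589) or null replicate 3 (adjusted p = 0.0553). Without a trend in the variance neither Lin28a probe set passed (adjusted p = 0.0608 for the dimmer and 0.0793 for the brighter).

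The 3 developmental pluripotency-associated genes fell, each by a different amount. Dppa3, also called Stella, encodes a maternal protein that protects DNA methylation in the early embryo. It had signals of 1693.2, 1068.8 and 1393.3 on null arrays, against 19439.3 and 20954.7 on wild type arrays. Its null arrays were all more than 10 times dimmer than either wild type array, yet far above the dim cutoff. Dppa3 fell by 4.13 (SE 0.19, adjusted p = 3.52e-05), and the constant had little effect on it (-4.15 with 1 and -4.09 with 64). Dppa5a, a KH-domain RNA-binding protein gene of embryonic stem cells, had signals of 308.8, 255.6 and 251 on null arrays, against 2943.4 and 5847.7 on wild type arrays. The null arrays were alike, while the wild type arrays differed from each other by more signal than wild type replicate 2 differed from any null array. Dppa5a fell by 3.90 (SE 0.27, adjusted p = 9.82e-05), and the difference was -4.40 without wild type replicate 2 and -3.36 without wild type replicate 3. Near-identical copies of Dppa5a are known in the mouse genome, and whether the probe set tells them apart was not tested. Dppa4, a SAP-domain chromatin protein gene, had signals of 90.6, 130.8 and 86.6 on null arrays, against 418 and 427.5 on wild type arrays. The wild type arrays nearly coincided, and the null arrays lay far below them. Dppa4 fell by 2.02 (SE 0.28, adjusted p = 0.00192).

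Tcl1 fell most of the 12 probe sets. It encodes a coactivator of AKT kinases that is known from embryonic stem cells and oocytes. Signals were 70.9, 68.7 and 135.3 on null arrays, against 3512.4 and 4296 on wild type arrays. Null replicates 1 and 2 were just above the dim cutoff and null replicate 3 was brighter. The mean was 91.6 ± 37.8 (SD, n = 3) in null ovaries, against 3904 ± 554 (SD, n = 2) in wild type ovaries, a wild type to null ratio of 42.6. Tcl1 fell by 5.32 (SE 0.29, adjusted p = 4.99e-05), by 5.57 with the constant 1 and by 4.74 with 64.

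Prdm1 moved the other way. It encodes BLIMP1, a repressor that specifies primordial germ cells and is also known from plasma cells, macrophages and several epithelia. Signals were 697, 861.6 and 797.7 on null arrays, against 187.7 and 232 on wild type arrays. All null arrays were at least 3 times as bright as either wild type array and lay close together. The mean was 785 ± 83.0 (SD, n = 3) in null ovaries, against 210 ± 31.3 (SD, n = 2) in wild type ovaries, and Prdm1 rose by 1.74 (SE 0.18, adjusted p = 5.53e-04). It passed under all 13 alternatives, between 1.56 and 1.87 (adjusted p = 3.15e-04 to 0.012).

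Marker lists of somatic cell types, some of them known to express Prdm1, were read beside it. Macrophage markers rose at 8 of 10 genes and fell at none, beside 14% of all genes higher, and their summed signal was 10884 to 12624 on null and 3426 to 3681 on wild type arrays. Without wild type replicate 3, 5 of the macrophage markers rose. Csf1r, the receptor that macrophages need, rose by 1.94 (SE 0.12). Of this list Itgam was below the dim cutoff on every array. Endothelial markers rose at 6 of 10 (sums of 9720 to 10892 on null and 4199 to 5508 on wild type arrays), and at 4 without wild type replicate 3. Oviduct and tract epithelium markers rose at 9 of 9 measured (sums of 24355 to 27938 on null and 6960 to 7409 on wild type arrays). Mesothelium markers rose at 7 of 8 (23875 to 25795 on null and 9217 to 9264 on wild type arrays), and stroma and smooth muscle markers at 9 of 10 (87160 to 104767 on null and 34290 to 41797 on wild type arrays). None of these lists had a member that fell. Granulosa markers fell at 7 of 10 and rose at none (18606 to 21456 on null and 29964 to 33348 on wild type arrays), with Amh below the cutoff on every array. Glia and neural markers rose at 2 of 7 measured and erythroid markers at 1 of 5 (0 with either wild type array left out), and none of either list fell. Foxd3 and Tubb3 of the glia and neural list were below the dim cutoff on every array. Which cells carried the Prdm1 transcript was not tested.

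**Figure D2:**
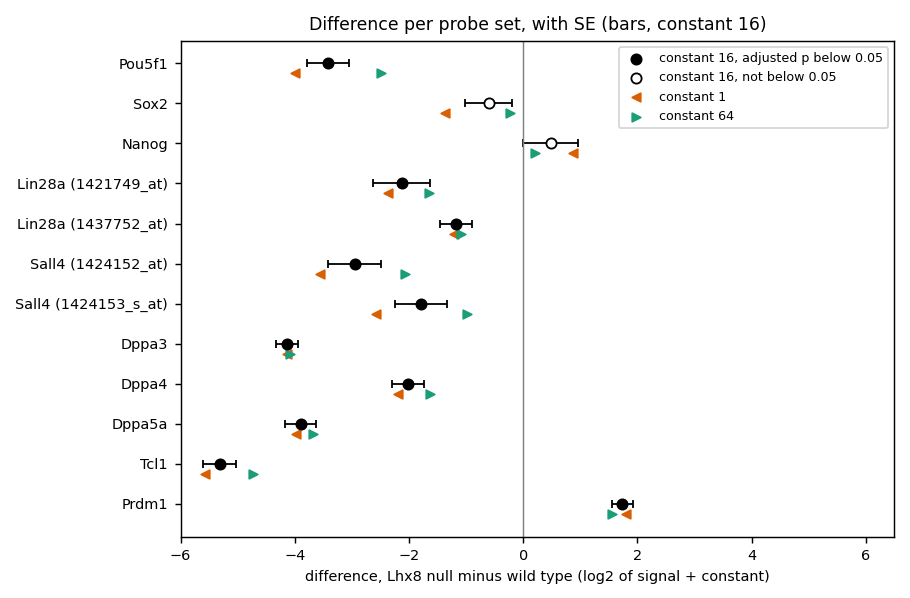
Difference of each probe set, Lhx8 null minus wild type, on the log2(signal + 16) scale with its SE, filled where the adjusted p was below 0.05 (limma), and with the constants 1 and 64 as triangles. Tcl1 lies lowest at -5.32, Prdm1 is the only called rise at 1.74, and the constant moves Pou5f1 and Sall4 more than Dppa3 or the brighter Lin28a probe set.

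The falls were next set against those of general germ cell markers. On each array the mean log2 level of Ddx4 and Dazl was taken from that of each member. That marker level itself fell by 2.26 between the groups, beside a median of -2.65 over the 15 germ cell markers. Dazl entered by its brightest probe set, which fell by less than its other one. The germ cell markers themselves fell unequally, from 1.55 for Tex14 to 4.91 for Gtsf1 and 5.28 for Tdrd1 among those called. A fall beyond Ddx4 and Dazl is thus not particular to the members. The ratios are given relative to their own wild type mean, so 0 is the wild type average for each probe set. A ratio within an array shows unequal change only. An exact two-sided permutation test over 5 arrays allows 10 relabellings and cannot go below p = 0.2, so no member can pass it.

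Tcl1 had the lowest ratios of the 12 probe sets, with values of -3.39, -2.97 and -2.82 on null arrays, against -0.25 and 0.25 on wild type arrays. Dppa3 had ratios of -1.53, -1.89 and -2.21 on null arrays, against -0.28 and 0.28 on wild type arrays. Dppa5a had ratios of -1.51, -1.35 and -2.07 on null arrays, against -0.63 and 0.63 on wild type arrays. In each of these genes every null array lay below both wild type arrays. The same was true of Pou5f1, at -0.64, -1.05 and -1.78 on null arrays, against -0.34 and 0.34 on wild type arrays. The group differences were -3.06 for Tcl1, -1.88 for Dppa3, -1.64 for Dppa5a and -1.16 for Pou5f1, each at the lowest possible p = 0.2 (exact permutation test). Of all probe sets, 0.382% (172) lay lower in every null array on this scale. The Dppa5a difference was -2.25 without wild type replicate 2 and -0.98 without wild type replicate 3. The Pou5f1 difference was -0.30 with a constant of 64 and -1.71 with 1. With Ddx4 alone as the scale it was -0.71, and the Pou5f1 ratios of the groups then overlapped. With Ddx4 alone, with a constant of 64 or with the mean of the germ cell marker list, 3 probe sets were lower without overlap in place of 4. All null signals of Pou5f1 were below the dim cutoff.

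Sall4, Dppa4 and 1 of the Lin28a probe sets overlapped between the groups once scaled to Ddx4 and Dazl. Dppa4 had a difference of 0.24 (SD 0.53, pooled over groups), with ratios of 0.02, 0.95 and -0.26 on null arrays, against -0.15 and 0.15 on wild type arrays. Sall4 had -0.70 (SD 0.90) at the brighter and 0.47 (SD 0.82) at the dimmer probe set. The sign of both depended on the added constant, with null signals mostly under the dim cutoff. With 1 the brighter stood at -1.29 and the dimmer at -0.30, and with 64 they stood at 0.11 and 1.20. Lin28a had 0.13 (SD 0.90) at the dimmer probe set, and the sign of that value rested on 1 array, at -0.86 without wild type replicate 2 and 1.17 without wild type replicate 3. At the brighter, Lin28a was higher than in wild type on every null array, with ratios of 0.95, 1.03 and 1.24 on null arrays, against -0.36 and 0.36 on wild type arrays, and a difference of 1.07 (exact permutation p = 0.2). Being higher on this scale is common, as 96.3% of all probe sets were, and the scale itself fell. Prdm1 stood 3.99, Sox2 1.65 and Nanog 2.74 higher, the last 2 from dim signals.

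**Figure D3:**
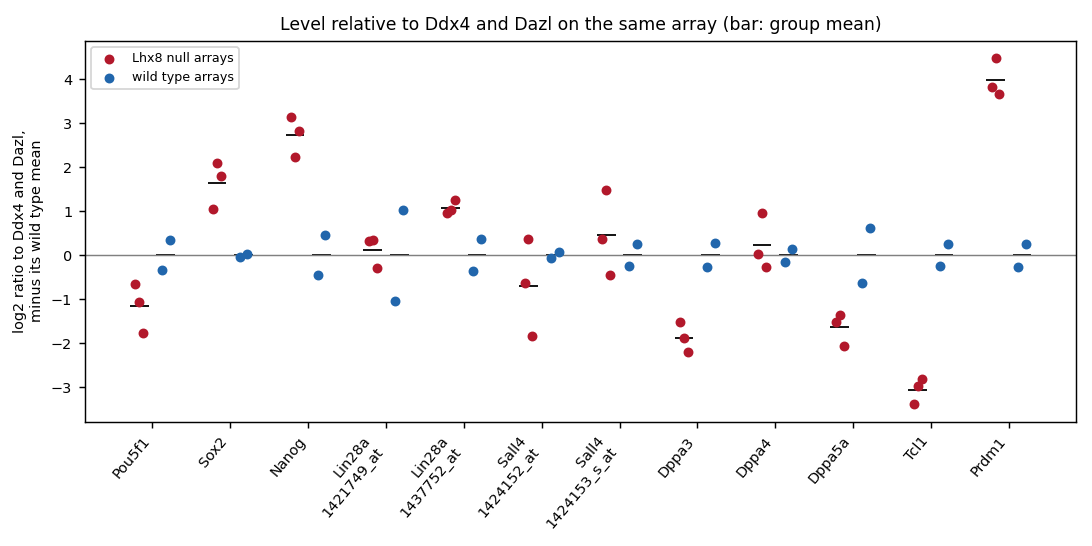
Log2 level of each probe set minus the mean log2 level of Ddx4 and Dazl on the same array, shown relative to its own wild type mean, with Lhx8 null arrays left of wild type arrays and group means as bars. Tcl1, Dppa3, Dppa5a and Pou5f1 lie below their wild type arrays on every null array, while Dppa4, Sall4 and the dimmer Lin28a probe set overlap them.

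Counts in the lists that follow are read beside the 13.5% of all genes called lower and 14% called higher. Of 23 other pluripotency genes measured, 7 fell and 3 rose (limma), with a median of -0.39 beside -0.02 over all genes, and 4 fell without wild type replicate 3. The share that rose was no higher than that of all genes. Tdgf1, Gdf3 and Eras of this list were below the dim cutoff on every array. Klf5 and Tbx3, transcription factors of embryonic stem cells that somatic tissues express too, rose by 2.72 (SE 0.17) and 1.75 (SE 0.16). Stat3, the effector of LIF signalling, fell by 1.74 (SE 0.14) and Rif1, a telomere and replication timing factor, fell by 1.20 (SE 0.12). Of 12 measured primordial germ cell genes 3 fell and 2 rose, and 1 fell with either wild type array left out. Kit, the receptor of germ cells and oocytes, fell by 3.46 (SE 0.20) and the homeobox gene Rhox5 by 1.32 (SE 0.25). The genes that rose were Ifitm3 (2.40, SE 0.13) and Ifitm1 (0.99, SE 0.12), membrane proteins that interferon also induces. Prdm14, the partner of PRDM1 in specification, was below the dim cutoff on all arrays.

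Of 20 measured relatives of the members, 6 fell and 5 rose. Without wild type replicate 2 the counts were 2 lower and 4 higher, and without wild type replicate 3 they were 0 lower and 2 higher (limma). With arrays centred on their medians 3 rose. Tcl1b1, a relative of Tcl1, fell by 1.88 (SE 0.31, adjusted p = 0.0044), and it did not pass with either wild type array left out. Among other relatives of Tcl1, Mtcp1 fell by 0.70 (SE 0.21, limma adjusted p = 0.0487). The brighter Tcl1b3 was not called, at -0.04 (SE 0.19, adjusted p = 0.909), nor was the dim Tcl1b4, at -1.48 (SE 0.49, adjusted p = 0.0665). Whether the probe sets tell these relatives apart was not tested. Sall1, the paralogue of Sall4 known from kidney and mesenchyme, rose by 3.32 (SE 0.33, adjusted p = 4.41e-04). Its signals were 619.3, 1282.7 and 1308.5 on null arrays, against 74.1 and 82.9 on wild type arrays, so that Sall1 and Sall4 went in opposite directions. Sox17, an endothelial and endodermal SOX factor, rose by 2.43 (SE 0.15) and Pou6f1 by 1.20 (SE 0.22). Lin28b, Sall3, Sox1, Pou3f2 and Prdm14 were below the dim cutoff on every array.

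Along the LIN28 and let-7 axis 4 of 14 measured genes fell and 2 rose, and 1 rose with either wild type array left out. Trim71, a let-7 target and stem cell regulator, fell by 2.91 (SE 0.30), E2f5, a cell cycle transcription factor, fell by 2.56 (SE 0.15) and Dicer1, the nuclease that makes microRNAs, fell by 1.45 (SE 0.12). Tut7, which adds uridines to let-7 precursors, rose by 0.75 (SE 0.12). Of the TCL1 and AKT genes 3 of 9 measured fell and 2 rose, and with either wild type array left out 1 fell and 1 rose. With arrays centred on their medians 1 rose. Pdpk1, the kinase that activates AKT, fell by 1.07 (SE 0.13), while Akt1 and Akt2 rose by 1.11 (SE 0.17) and 0.56 (SE 0.12). The lists share genes, such as Tcl1b1 and Trim71, and were compared on the same arrays.

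**Figure D4:**
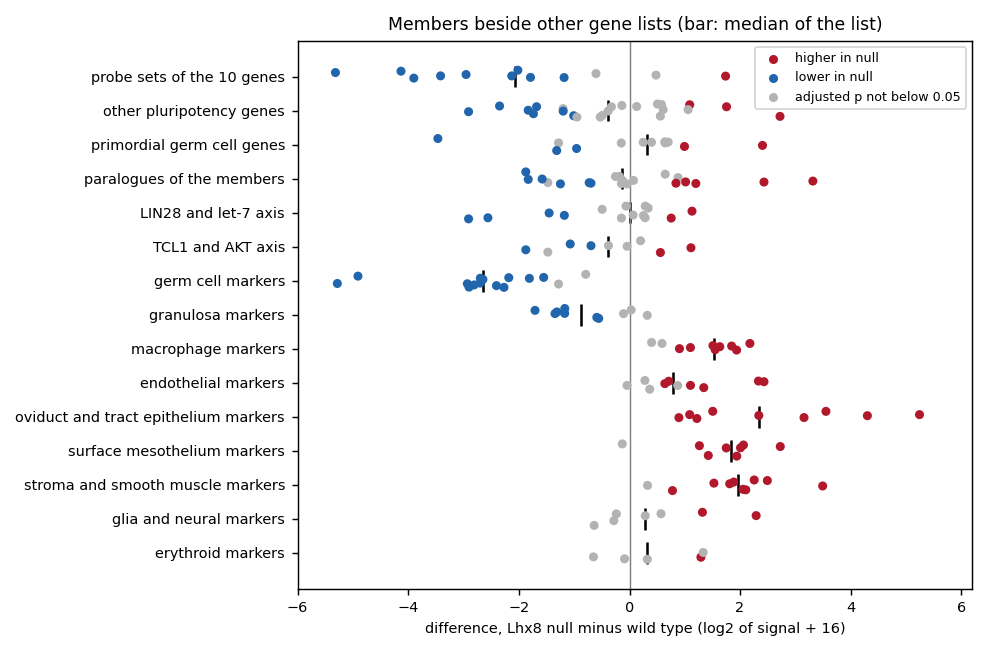
Difference of each gene, Lhx8 null minus wild type, on the log2(signal + 16) scale, by list, with the list's median as a bar and colours for genes called higher, called lower or not called (limma, adjusted p below 0.05). The probe sets of the 10 genes have a median of -2.07, the germ cell markers -2.65 and the macrophage markers 1.53.

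The gene with the most similar profile was found for each called member over the 5 arrays, as the smallest root mean square difference of centred log2 levels among 13059 genes above the dim range. The 5 points fall into 2 groups, so this likeness is a description only. Nearest to Prdm1 was Fgf9, at 0.05, with signals of 512.1, 597.6 and 538.9 on null arrays, against 112.6 and 151.5 on wild type arrays. Nearest to Tcl1 was the germ cell Tudor gene Tdrd1, at 0.29. For Dppa3 it was Th (0.15), for Dppa5a Kbtbd8 (0.18), for Pou5f1 Cd164l2 (0.18), for Sall4 C8b (0.17), for Dppa4 Slc6a20a (0.11) and for Lin28a Myo15b (0.08). None of the nearest genes was another of the 10.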

How the data were processed

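Pools of newborn mouse ovary RNA, 3 Lhx8 null and 2 wild type, were measured on 1 oligonucleotide array each, with group and replicate read from each sample's title. The deposited values are linear array intensities per probe set, whose 2% trimmed mean is 500 on every array. GCOS is the software in the submitters' processing notes of the wild type arrays; that of the null arrays is not given in the sources used here. Whether pools came from separate dissections was not given, so p-values measure the spread between these pools. The number of arrays limits the precision.

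The signals were log2-transformed after adding 16, then quantile normalised. Of 45101 probe sets 64 controls were left out, 34945 of the rest had 1 symbol, 932 several and 9160 none. The other 45037 were fitted together without a brightness filter, with limma 3.58.1 in R 4.3.3 (lmFit, eBayes with trend, two-sided), with Benjamini-Hochberg adjustment over all 45037. Lists were counted by each gene's brightest probe set, and list genes were named by smallest p, up to 4 each; a few others were named after their values were seen. For ratios to Ddx4 and Dazl the limma fit had been planned; its errors are shared by all probe sets, which makes its p-values too small, so an exact permutation test is given in its place. The members and lists were chosen with earlier results of these data known. In simulated arrays over the 45037 probe sets, 40 were changed at each log2 size. At -4, 77.5% of these were recovered, at -2 32.5% and at -1 12.5%, so small changes can be missed. Of the simulated calls 2.82% were false. Far fewer probe sets changed there than were called here, so these rates do not give the power of the reported fit. Promoter windows come from RefSeq (GRCm38.p6). The replicate numbers were checked for pairing, and deviations from group means correlated at 0.008 for both shared numbers. With 2 wild type arrays the wild type deviations mirror each other, so this check cannot exclude that the numbers pair the pools. Alternatives changed the p threshold, the added constant, the scaling, how variances are moderated, which probe sets enter (bright ones, or 1 for each gene), a block for replicate, and each array in turn was left out.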

Additional observations from a re-analysis of the deposited data

How the results depend on the processing

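Of the 12 probe sets, 9 kept their direction and their side of the threshold under every alternative that gave them a value (Sox2, Nanog and the dimmer Sall4 probe set are not in the fit without the dim probe sets); the other 3, both Lin28a probe sets and the dimmer Sall4 probe set, kept their direction. The count of probe sets called lower was 9 and lay between 6 and 9 over the alternatives, and Prdm1 was called higher in all of them. The counts over all probe sets moved more. With the brightest probe set of each gene, which fits 18193 in place of 45037, 2774 were lower and 2871 higher. At a threshold of 0.01 there were 2372 lower and 2378 higher, and without a trend in the variance 2953 higher and 3104 lower. With each array left out in turn, 1801 to 4929 were lower and 2134 to 5098 higher. Centring arrays on their medians shifted the median of all probe sets to -0.13 and the share of higher calls to 35%, against 50.9% in the reported fit (3396 higher, 6302 lower); with the deposited scaling the median was 0.11. Relative to those medians Prdm1 stood at 1.72 and Tcl1 at -5.35 with either scaling. With the replicate number as a replicate block, 9 of the 12 probe sets were lower, 1 was higher, and 4683 and 5147 of all probe sets were lower and higher; the block changed no call of the 12. Relative to Ddx4 and Dazl, 3 to 5 probe sets were lower without overlap under every alternative run. The erythroid gene Hba-a1, not called, stood at -0.65 with all arrays and ranged from -1.55 to 0.22 with each array left out, the highest without wild type replicate 2. Its signals were mostly below the dim cutoff, at 3.7, 52 and 8.8 on null arrays, against 65.4 and 9.2 on wild type arrays. Dim signals limit what can be said of Sox2 and Nanog, and of the null levels of Pou5f1, Sall4 and the dimmer Lin28a probe set.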

Other observations

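Other genes of the network, picked out after their values were seen, fell with the members. Zfp42, which encodes the stem cell zinc finger protein REX1, had signals of 73, 24 and 72.3 on null arrays, against 250.5 and 337.5 on wild type arrays, and fell by 2.35 (SE 0.43, adjusted p = 0.00656, limma). Dppa2, which acts with Dppa4, had signals of 24.1, 21.2 and 12 on null arrays, against 70.9 and 108.7 on wild type arrays, and fell by 1.83 (SE 0.39, adjusted p = 0.0121). Nr0b1, an orphan nuclear receptor gene that gonadal somatic cells also express, fell by 1.68 (SE 0.22, adjusted p = 0.00134). For each of these genes every null array was below both wild type arrays, which held for 25% of all probe sets (11263). Dppa2 was below the dim cutoff on every null array. All of these genes come from the list of 23 other pluripotency genes, of which 7 fell, 3 rose and 13 were not called. Those not called include Tdgf1, Gdf3 and Eras, which were below the dim cutoff on every array.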
